A study of Arabidopsis thaliana with 6 samples.

Results

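Copia retrotransposon genes were the 482 gene models, of 30361 on the array, whose description in the files contains the word copia and neither gypsy nor athila, with AT4G16870 left out. Of these, 477 were described as members of the copia-like family. Their levels were compared in young leaves of 3 genotypes of Arabidopsis thaliana, with 2 arrays each: kyp mutants, cmt3 mutants and wild type Col-0. All plants were untreated and had been kept on soil under long days for 4 weeks. The labels name no allele or background of either mutant, and they leave unsaid whether replicate arrays stand for different plants, so p-values measure the spread between arrays, which may be technical.

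Copia elements, also called Ty1/copia elements, are retrotransposons flanked by long terminal repeats. They copy themselves through RNA, which encodes a capsid protein (gag) and a polyprotein (pol) that is cut into protease, integrase, reverse transcriptase and RNase H. In plants they are kept silent by DNA methylation and by dimethylation of histone H3 at lysine 9. KYP, also named SUVH4, is a histone methyltransferase that places this histone mark, and CMT3 is the chromomethylase that methylates cytosines in CHG contexts on marked chromatin. The design asks which transcripts of leaves change when either enzyme is mutated.

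Each gene model had 1 RMA-normalized intensity per array, summarised from 2 probes for 408 copia genes and from 3 probes for 74. The values below are log2 intensities of single arrays and log2 changes of the mutant over wild type. Since probes differ in brightness, levels of different genes were not compared beyond coarse classes. The labelled tissue matched its markers: 9 of 9 leaf genes lay between 9.73 and 15.98. Markers of pollen lay between 4.93 and 8.39, those of root between 4.23 and 9.35 and those of seed between 4.10 and 7.41, and limma called 0 of these 13 genes in either mutant, with 3 in kyp and 2 in cmt3 at an unadjusted p under 0.05. The summed intensity of the 5 pollen markers was 554 and 397 in kyp, 414 and 528 in cmt3, and 403 and 273 in wild type. Their part in the results on copia genes was not tested, and in leaf RNA a change in the number of expressing cells and a change of RNA per cell cannot be told apart. CMT3 itself fell by 1.65 in cmt3 (10.94 and 10.97, against 12.61 and 12.59 in wild type, limma adjusted p = 0.0159). KYP read 10.04 and 9.91 in kyp, against 10.24 and 10.19 in wild type (adjusted p = 0.515), and whether its probes lie in the mutated part of the gene is not given. Of 21 silencing genes listed, limma called 0 in kyp (2 at an unadjusted p under 0.05) and CMT3 alone in cmt3 (6 unadjusted). Over all gene models 10.2% in kyp and 23.0% in cmt3 had an unadjusted p under 0.05.

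Most copia genes gave little signal in wild type leaves. Their median log2 intensity was 5.72 and 5.65 in kyp, 5.83 and 5.91 in cmt3, and 5.55 and 5.56 in wild type, against array medians of 9.89 to 9.96 over all gene models. By the mean of the wild type arrays, 339 of the 482 (70.3%) fell in the lowest quartile of all models, below 6.20, and 115 in the second quartile. A log2 intensity of 10 or more was reached by 32 and 35 copia genes in kyp, by 44 and 43 in cmt3, and by 25 and 28 in wild type. The typical member hardly moved: the median log2 change over all 482 was 0.03 in kyp and 0.09 in cmt3, beside 0.005 and 0.03 over all gene models.

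In cmt3, 26 copia genes rose and 2 fell at a limma adjusted p under 0.05, which is 5.39% and 0.415% of the 482. Over all gene models the shares were 0.56% higher and 0.181% lower, and among the 1956 other transposable element genes 2.91% were higher. The 26 genes rose by 4.51-fold to 174-fold, with a median of 25.3-fold. Their means lay between 7.22 and 13.81 in cmt3 and between 4.09 and 7.26 in wild type. By size alone, 44 copia genes (9.13%) were at least 4-fold higher in cmt3 with both cmt3 arrays above both wild type arrays, and 5 (1.04%) were at least 4-fold lower without overlap, against 0.912% and 0.978% over all gene models. Among the other transposable element genes these shares were 4.91% and 0.256%. At an unadjusted p under 0.05 (limma), 91 copia genes (18.9%) were higher and 37 (7.68%) lower in cmt3. Over all gene models these unadjusted shares were 12.9% and 10.1%, and among the other transposable element genes 14.4% and 5.52%.

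In kyp, 5 copia genes rose and 0 fell (limma, adjusted p under 0.05), which is 1.04% of members higher, against 0.0988% higher and 0.00659% lower over all gene models. At an unadjusted p under 0.05, 53 copia genes (10.996%) were higher and 34 (7.05%) lower in kyp, against 5.12% and 5.11% over all gene models. The other transposable element genes gave 11.6% higher and 4.40% lower, so the share higher was not particular to copia genes. The 5 genes rose by 12.5-fold to 88.1-fold. At least 4-fold higher without overlap were 27 copia genes (5.60%), and 3 were at least 4-fold lower (0.622%). The background shares by this rule were 0.441% and 0.175%. Among the other transposable element genes 0.511% rose in kyp by limma, and by the size rule 2.66% were higher and 0.256% lower.

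The slide is a limit on both counts. Per the image names, slide 1 carried kyp replicate 1 and both wild type arrays, while slide 2 carried the cmt3 arrays together with kyp replicate 2. With the slide as a block, 2 residual degrees of freedom remained and 0 copia genes were called in either mutant, with lowest adjusted p-values of 0.141 among the 5 genes in kyp and 0.165 among the 26 in cmt3. At an unadjusted p under 0.05 that fit held 85 copia genes in kyp (17.63%) and 100 in cmt3 (20.7%), against 7.48% and 7.54% of all gene models. Without the block these shares were 18.05% in kyp and 26.6% in cmt3, against 10.2% and 23.0% of all gene models. In this layout the block estimate in kyp compares kyp replicate 1 with the wild type arrays alone. In cmt3 its slide shift rests on the difference between the 2 kyp arrays. Called genes tend to have close replicates, so a small shift is partly built in and says little on the slide. The median log2 change of the 5 genes in kyp was 5.15 with the block and 5.17 without. That of the 26 in cmt3 was 4.65 with and 4.66 without, with 25 of the 26 still at 2 or more. Single genes moved further. In kyp 0 of the 5 moved by over 1.5-fold, but in cmt3 7 of the 26 did: the rise with the block was 8.28 for AT3G44215, 7.94 for AT3G46183, 7.31 for AT3G26483, 6.92 for AT4G14460, 6.38 for AT4G19780, 4.62 for AT2G19840 and 3.502 for AT5G42645. Within slide 1 alone, kyp replicate 1 was at least 4-fold above the wild type mean for 24 of the 27 genes that passed the size rule in kyp. That difference is the same quantity as the block estimate in kyp and no second check. No slide held both cmt3 and wild type. Leaving out any 1 of the 6 arrays also takes a degree of freedom. All 5 calls in kyp and most of the 28 in cmt3 were then lost, while these genes kept their sign.

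**Figure D1:**
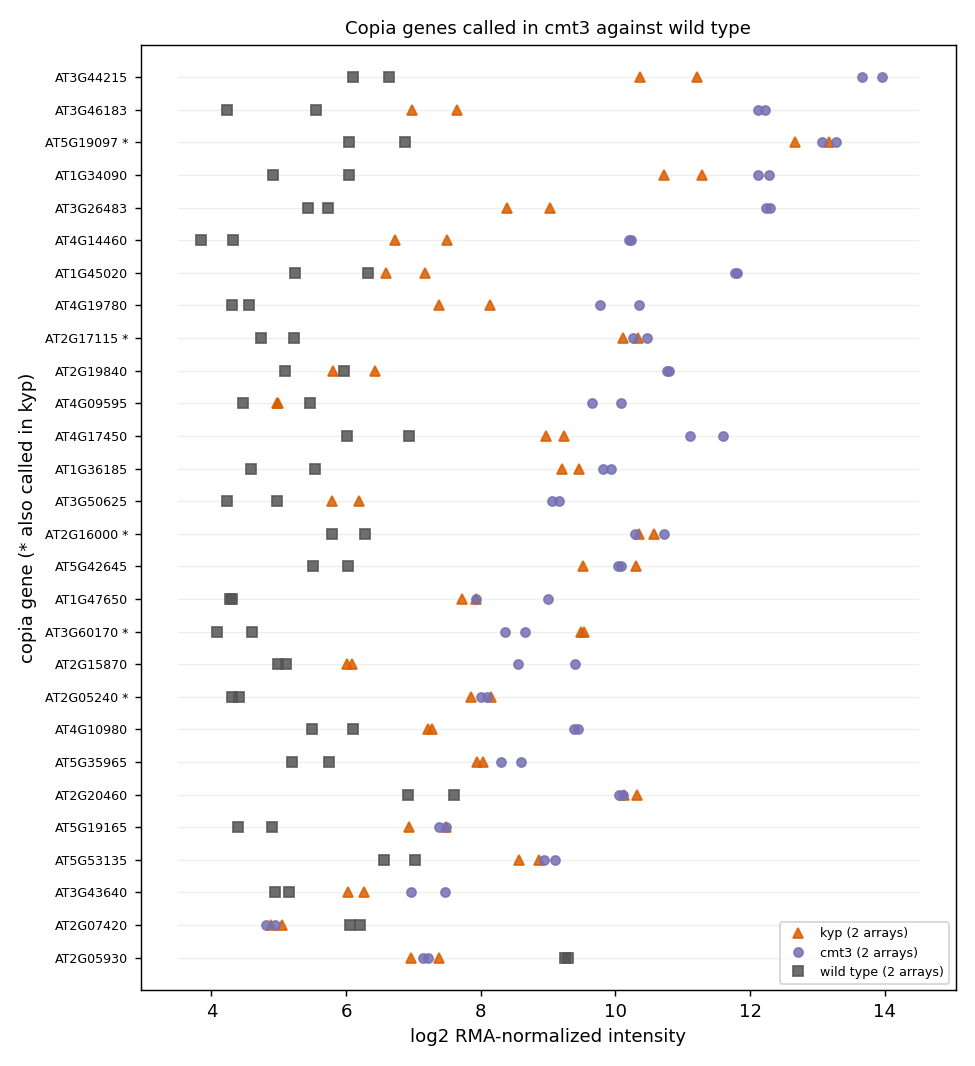
Log2 RMA-normalized intensity (horizontal axis) of the 28 copia genes called in cmt3, 1 row per gene, with triangles for the 2 kyp arrays, circles for the 2 cmt3 arrays and squares for the 2 wild type arrays. The 26 genes that rose have both cmt3 circles to the right of both wild type squares, and the 5 starred genes were also called in kyp. The 2 genes that fell are in the lowest rows.

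Of the loci that rose, AT3G44215 (chromosome 3, 15930226 to 15934677, gene models of Release 6) rose most in cmt3. Its description gives open reading frame 1 of Brassica oleracea, a copia-like polyprotein, as the best match. It read 13.66 and 13.96 in cmt3, against 6.11 and 6.64 in wild type, a rise of 7.44 ± 0.36 (SE, limma adjusted p = 0.012), or 8.28 with the slide as a block. In kyp it read 11.21 and 10.37, above both wild type arrays by 4.42 on average, which did not pass the test (adjusted p = 0.0726).

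AT5G19097 (chromosome 5, 6403279 to 6407610) matches the same Brassica protein. It read 13.17 and 12.66 in kyp, 13.07 and 13.28 in cmt3, and 6.87 and 6.04 in wild type. The 4 mutant arrays overlapped one another and stood far above wild type. The rise was 6.46 ± 0.34 in kyp (SE, limma adjusted p = 0.0294) and 6.72 ± 0.34 in cmt3 (adjusted p = 0.013).

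The other 4 genes that rose in kyp also rose in cmt3, and for 3 of them the arrays of the mutants overlapped. AT2G17115 (chromosome 2, 7456027 to 7460973) read 10.33 and 10.12 in kyp, 10.46 and 10.26 in cmt3, and 4.74 and 5.23 in wild type. AT2G16000 (chromosome 2, 6961366 to 6965730) read 10.57 and 10.35 in kyp, 10.29 and 10.72 in cmt3, and 5.79 and 6.28 in wild type. Both match the Brassica protein. AT2G05240 (chromosome 2, 1907459 to 1911566) matches an Arabidopsis polyprotein and read 7.85 and 8.16 in kyp, 8.01 and 8.09 in cmt3, and 4.30 and 4.41 in wild type. AT3G60170 (chromosome 3, 22243487 to 22247506) matches SIRE1, a copia element of soybean that also encodes an envelope-like protein. It read 9.49 and 9.53 in kyp, 8.66 and 8.36 in cmt3, and 4.60 and 4.09 in wild type. Both its kyp arrays lay above both cmt3 arrays, by 1.004 on average (limma adjusted p for kyp against cmt3 = 0.361). Adjusted p-values of the 5 genes ran from 0.016 to 0.032 in kyp.

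Other genes rose in cmt3 while kyp stayed near the wild type level. AT4G09595 (chromosome 4, 6067923 to 6072003), matching an Arabidopsis polyprotein, read 4.99 and 4.98 in kyp, 10.09 and 9.65 in cmt3, and 4.47 and 5.46 in wild type. Both kyp arrays lay between the wild type arrays, and the rise in cmt3 was 4.90 ± 0.37 (SE, limma adjusted p = 0.028). AT2G19840 (chromosome 2, 8569577 to 8573604), with the same kind of match, read 5.80 and 6.44 in kyp, 10.77 and 10.79 in cmt3, and 5.97 and 5.09 in wild type. AT1G45020 (chromosome 1, 17026848 to 17031160) matches AtRE2, a copia element of Arabidopsis. It read 6.60 and 7.18 in kyp, 11.78 and 11.81 in cmt3, and 5.25 and 6.33 in wild type. The kyp arrays of AT1G45020 thus lay just above wild type and those of AT2G19840 overlapped it.

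A further group stood between wild type and cmt3 in kyp. AT3G26483 (chromosome 3, 9693606 to 9698269), also matching AtRE2, read 9.03 and 8.40 in kyp, 12.30 and 12.24 in cmt3, and 5.74 and 5.44 in wild type. AT3G46183 (chromosome 3, 16968620 to 16973197) matches Hopscotch, a copia element of maize. It read 7.66 and 6.98 in kyp, 12.12 and 12.22 in cmt3, and 5.56 and 4.24 in wild type. AT4G14460 (chromosome 4, 8314074 to 8318826), a match of the Brassica protein, read 7.51 and 6.72 in kyp, 10.24 and 10.20 in cmt3, and 3.85 and 4.32 in wild type. In each of these 3 genes the 3 genotypes did not overlap.

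The remaining genes that rose in cmt3, from the largest rise to the smallest, were AT1G34090, AT4G19780, AT4G17450, AT1G36185, AT3G50625, AT5G42645, AT1G47650, AT2G15870, AT4G10980, AT5G35965, AT2G20460, AT5G19165, AT5G53135 and AT3G43640. AT1G34090 read 11.29 and 10.72 in kyp, 12.11 and 12.28 in cmt3, and 4.91 and 6.05 in wild type. Of these 14 genes, 10 match the Brassica protein. One of them, AT5G42645, read 9.51 and 10.31 in kyp, 10.04 and 10.09 in cmt3, and 5.52 and 6.02 in wild type, and another, AT2G15870, read 6.09 and 6.01 in kyp, 8.55 and 9.40 in cmt3, and 4.995 and 5.106 in wild type. The mutants overlapped for AT5G42645 and lay apart for AT2G15870. The smallest rise was that of AT3G43640, a match of the envelope-like protein of Endovir1-1, an Arabidopsis element. It read 6.26 and 6.03 in kyp, 6.97 and 7.47 in cmt3, and 4.94 and 5.16 in wild type, a rise of 2.17 in cmt3 (limma adjusted p = 0.048).

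Kyp and cmt3 were also set against each other in the same fit. Limma called 0 of the 482 copia genes, with a smallest adjusted p of 0.107 (AT3G26483), while 17 (3.53%) were higher and 56 (11.6%) lower in kyp at an unadjusted p under 0.05, against 5.15% and 7.35% over all gene models. Over all gene models 0.00988% were called higher and 0.0198% lower in kyp. By size, 3 copia genes (0.622%) were at least 4-fold higher and 23 (4.77%) at least 4-fold lower in kyp than in cmt3 without overlap, against 0.412% and 0.296% over all gene models. Among the 26 genes that rose in cmt3, 12 were in the lower set, with differences from -4.91 to -2.17 and adjusted p-values from 0.107 to 0.321. For 11 of the 26, kyp lay within 2-fold of cmt3. Of these 11, 10 match the Brassica protein, against 5 of the 12. Both kyp arrays were above both wild type arrays in 24 of the 26, and the change in kyp ran from 0.01 to 6.46 with a median of 2.99. The 2 comparisons with wild type share the wild type arrays, so these values are given side by side only. The 26 were also picked for high cmt3 and low wild type arrays, which favours kyp lying above wild type and below cmt3. The share of all gene models with both kyp arrays above both wild type arrays is not given here.

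Of the 3 loci at least 4-fold higher in kyp than in cmt3, the largest difference was that of AT1G70010 (chromosome 1, 26370840 to 26375120), a match of the Brassica protein. It read 11.39 and 11.67 in kyp, 4.80 and 6.24 in cmt3, and 7.002 and 5.016 in wild type. Both kyp arrays were far above the 4 other arrays, and the cmt3 and wild type arrays overlapped. With wild type arrays 1.99 apart on the log2 scale, the change of 5.52 ± 0.84 in kyp did not pass (SE, limma adjusted p = 0.229), nor did the difference of 6.01 between kyp and cmt3 (adjusted p = 0.270). The locus is 114 kb from CMT3. In all, 8 copia genes lay within 3 Mb of CMT3 or KYP, among them AT5G19097, 1897 kb from KYP. Of the 8, 4 were at least 4-fold higher in kyp and 3 in cmt3 without overlap, and limma called 1 and 2 higher. Among the other 474 copia genes, 23 (4.85%) in kyp and 41 (8.65%) in cmt3 were higher by the same size rule. Limma called 4 and 24 of these 474 higher. Of 22 other transposable element genes within 3 Mb of CMT3 or KYP, 2 in kyp and 4 in cmt3 passed the size rule.

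Several loci with a large difference did not pass the test, and their wild type arrays lay far apart. AT5G27925 (chromosome 5, 9949690 to 9954111), matching an Arabidopsis polyprotein, had the largest change in kyp of all copia genes. It read 14.54 and 13.98 in kyp, 14.14 and 13.78 in cmt3, and 9.04 and 5.79 in wild type. Every mutant array was above both wild type arrays. The changes of 6.84 in kyp and 6.54 in cmt3 had a standard error of 1.12 and adjusted p-values of 0.259 and 0.094 (limma). AT1G53810, a match of Hopscotch, read 12.02 and 11.95 in kyp, 10.13 and 10.38 in cmt3, and 6.59 and 5.13 in wild type, with adjusted p-values of 0.0731 and 0.061. AT1G16660, a match of the Brassica protein, read 6.70 and 5.30 in kyp, 11.12 and 11.41 in cmt3, and 4.25 and 5.86 in wild type (limma adjusted p in cmt3 = 0.063). In kyp it overlapped wild type. AT1G30340, AT4G20365 and AT2G03100 were higher in cmt3 by 3.81, 3.77 and 3.55, also without passing (adjusted p = 0.094, 0.079 and 0.081), while their changes in kyp were -0.56, 0.76 and 0.53.

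Replicate arrays of copia genes were noisier than those of the array as a whole. The median absolute difference between the arrays of a genotype was 0.49 in kyp, 0.34 in cmt3 and 0.51 in wild type for copia genes, beside 0.19, 0.21 and 0.17 over all gene models. In the lowest wild type quartile it was 0.52, 0.34 and 0.52 for copia genes, beside 0.47, 0.38 and 0.51 for all models of that quartile. At least 4-fold apart between replicates were 15 copia genes in kyp (3.11%), 9 in cmt3 (1.87%) and 16 in wild type (3.32%). Over all gene models the shares were 1.07%, 1.12% and 1.37%. Over all models of the lowest wild type quartile they were 2.45%, 1.17% and 2.35%, beside 3.54%, 1.48% and 2.66% for the copia genes of that quartile.

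The 2 copia genes that fell in cmt3 differed little between the mutants. AT2G05930 (chromosome 2, 2274780 to 2277840) matches the gag/pol polyprotein of Endovir1-1. It read 6.97 and 7.39 in kyp, 7.15 and 7.22 in cmt3, and 9.29 and 9.25 in wild type. It fell by 2.09 ± 0.17 in cmt3 (SE, limma adjusted p = 0.030). The change in kyp was -2.09 as well, with an adjusted p of 0.0707. AT2G07420 matches AtRE2 and read 4.89 and 5.05 in kyp, 4.95 and 4.81 in cmt3, and 6.21 and 6.06 in wild type, a fall of 1.26 in cmt3 (adjusted p = 0.046). Another Endovir1-1 match, AT4G04420, singled out after its values were seen, read 6.36 and 7.05 in kyp, 6.84 and 6.09 in cmt3, and 9.03 and 9.18 in wild type (adjusted p = 0.221 in kyp and 0.077 in cmt3).

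The copia genes that were higher were unevenly spread over the proteins named as best match, a description with no test. The largest such group, 68 genes matching open reading frame 1 of Brassica oleracea, held 3 of the 5 called genes in kyp and 15 of the 26 that rose in cmt3. At least 4-fold higher without overlap were 15 of the 68 in kyp (22.1%) and 19 in cmt3 (27.9%). Matches of Hopscotch came next in kyp, with 4 of 26 (15.4%), and 5 of the 26 in cmt3 (19.2%). Of the 20 matches of AtRE1, 1 was higher in kyp by this rule and 5 in cmt3. Of the 49 matches of the most frequent Arabidopsis polyprotein, 2 were higher in kyp and 6 in cmt3.

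Other groups had few or 0 genes at this size. Among 56 matches of SIRE1, 1 was higher in each mutant, AT3G60170. Among 45 matches of the Endovir1-1 gag/pol protein 0 were higher in either mutant, and 2 were at least 4-fold lower in kyp and 3 in cmt3. Matches of retrofit, a rice element (10 genes), of a rice pol protein (19 genes) and of the tobacco reading frames (21 and 16 genes) also had 0. A best match is a label of the annotation and not a lineage, and related copies may share probe targets, which was not tested.

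**Figure D2:**
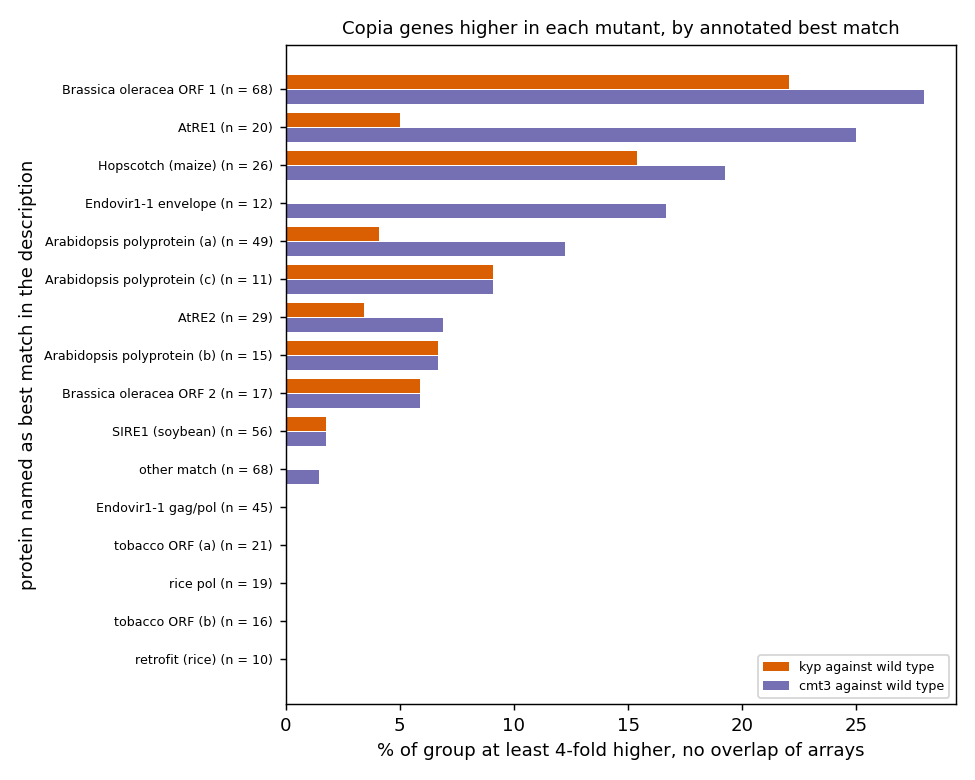
Share of copia genes (horizontal axis, in percent) at least 4-fold higher than wild type without overlap of arrays, for kyp (upper bars) and cmt3 (lower bars), by the protein that the description gives as best match, with the number of genes. The Brassica oleracea reading frame 1 group stands highest in both, at 22.1% in kyp and 27.9% in cmt3, and 5 groups have no bar.

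Length went with the same genes. Annotated copia genes ran from 209 to 14591 bp with a median of 2865 bp, and a complete polyprotein gene of this family is some kilobases long. All 5 genes that rose in kyp and 21 of the 26 that rose in cmt3 were 4 kb or longer, out of 172 of that length. In cmt3 12.2% of these 172 rose, against 2 of 114 genes of 2 to 4 kb and 3 of 196 shorter ones. By the size rule 22 of the 172 were higher in kyp (12.8%) and 33 in cmt3 (19.2%), against 3 and 7 of the 114 and 2 and 4 of the 196. Among other transposable element genes of 4 kb or longer, 3.95% of 481 rose in cmt3. Within the Brassica-matched group, 37 genes were 4 kb or longer, and these held 13 of its 15 genes that rose in cmt3. Genes whose match had a P-value at or below 1e-200 in the description numbered 137 and included 19 of the 26, and the 340 with a weaker match included 7.

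Position was read from the share of transposable element genes among the gene models. Bins of 1 Mb with 50% or more such genes counted as pericentromeric. The 61 copia genes in them included 0 called by limma in either mutant. At an unadjusted p under 0.05, 4 were higher and 7 lower in kyp, and 5 higher and 4 lower in cmt3. Over all gene models the unadjusted shares were 5.1% higher and 5.1% lower in kyp, and 12.9% and 10.1% in cmt3. By size 0 in kyp and 1 in cmt3 were at least 4-fold higher. The 421 copia genes on the arms included all 26 that rose in cmt3, 5 that rose in kyp, and 27 in kyp and 43 in cmt3 by size. Chromosome 2 had no bin at 50%, however. With bins at 33%, 184 copia genes were pericentromeric and 3 of them rose in cmt3 (1.63%), against 23 of 298 on the arms (7.72%). The 2 genes that fell in cmt3 were then pericentromeric. Other transposable element genes gave 1.28% of 1326 and 6.35% of 630 by the same bins.

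Distance from the centre of the 33% bins, taken after the data were seen, placed 334 copia genes within 3 Mb, 77 at 3 to 6 Mb and 71 farther out. Of these, 12, 9 and 5 rose in cmt3 (3.59%, 11.7% and 7.04%), and 13, 8 and 6 were at least 4-fold higher in kyp. Length differed too: the outermost genes had a median of 1539 bp and those at 3 to 6 Mb of 3329 bp. Among genes of 4 kb or longer, 0 of 12 in the 50% bins and 21 of 160 on the arms rose in cmt3. The 5 chromosomes each held members that rose in cmt3: 4 of 97 on chromosome 1, 6 of 99 on chromosome 2, 6 of 118 on chromosome 3, 5 of 78 on chromosome 4 and 5 of 90 on chromosome 5.

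**Figure D3:**
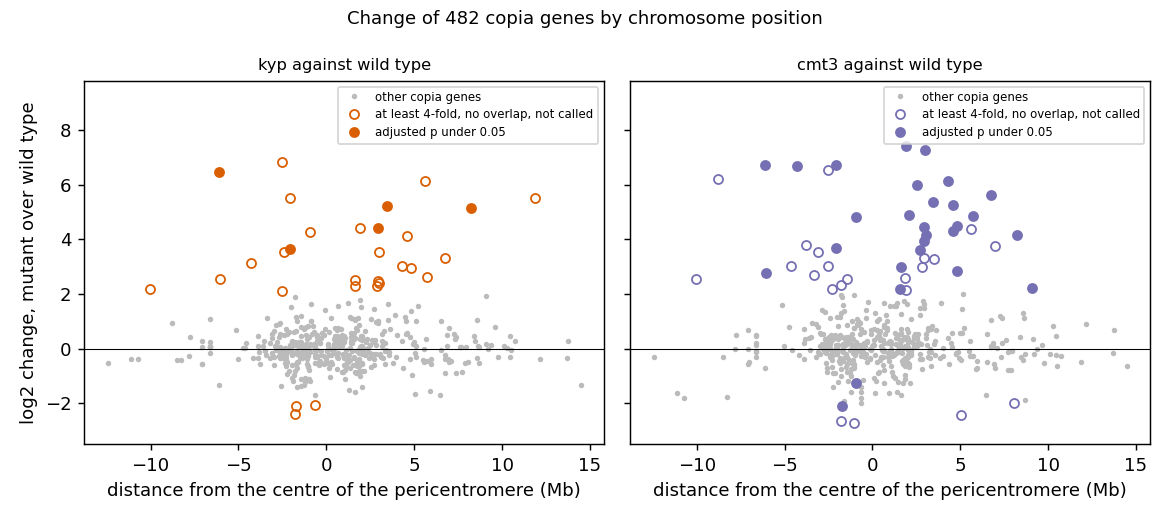
Log2 change over wild type (vertical axis) of 482 copia genes against the signed distance in Mb from the centre of the pericentromere of their chromosome (horizontal axis), for kyp (left) and cmt3 (right). Filled circles passed limma's test, open circles were at least 4-fold changed without overlap, and grey dots are the rest. Most copia genes lie within 3 Mb of the centre, and high points also lie well outside it.

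Neighbouring genes were looked at for the 26 loci that rose in cmt3, of which 19 lay within 2 kb of a gene that is no transposable element. Of the 26 nearest such genes, 2 were called in cmt3, both higher, against 0.56% called higher and 0.181% lower over all gene models. They are named here after their values were seen. AT1G45035, 893 bp from AT1G45020, rose by 5.52 (limma adjusted p = 0.00237), and AT2G19850, 2181 bp from AT2G19840, rose by 5.11 (adjusted p = 0.0341). The change in kyp was 0.94 for AT1G45035 and 4.76 for AT2G19850 (adjusted p = 0.160 and 0.0815), while that of its copia neighbour AT2G19840 was 0.59. The median change of the 26 neighbours in cmt3 was 0.13, with 4 at least 2-fold higher and 3 at least 2-fold lower. Shares at 2-fold over all gene models, or over neighbours of the other copia genes, are not given here, so these counts have no background.

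The counts were also taken by wild type level. Of the 339 copia genes in the lowest quartile, 4 rose in kyp (1.18%) and 21 in cmt3 (6.195%). By size, 21 in kyp (6.195%) and 36 in cmt3 (10.619%) were at least 4-fold higher. The 1326 other transposable element genes of that quartile gave 2.87% in kyp and 5.35% in cmt3 by size. Limma called 0.452% and 3.09% of these 1326 higher. In the second quartile, with 115 genes, 1 rose in kyp and 5 in cmt3, and 6 (5.22%) and 8 (6.96%) were at least 4-fold higher. The 596 other transposable element genes there gave 2.18% and 4.03% by size. Shares over all gene models by quartile are not given here. The upper quartiles held 20 and 8 copia genes, and 0 of these 28 rose in either mutant by limma or by the size rule. At an unadjusted p under 0.05, 1 was higher and 4 lower in kyp, and 3 were higher and 11 lower in cmt3. Over gene models of all levels 5.1% were higher and 5.1% lower in kyp by this p, and 12.9% and 10.1% in cmt3. Other transposable element genes were few there too, with 24 and 10. Limma called 1 of the 24 higher in kyp and 2 in cmt3, and 0 of the 10. Wild type values enter both the level and the change. When the level came from one wild type array and the change from the other, 19 of 334 and 21 of 335 genes of the lowest quartile were at least 4-fold higher in kyp (5.69% and 6.27%), and 39 and 37 in cmt3 (11.68% and 11.05%). In the second quartile 7 of 120 and 10 of 117 were higher in kyp (5.83% and 8.55%), and 7 and 13 in cmt3 (5.83% and 11.1%), so the lowest quartile did not stand above the second in kyp, nor in 1 of the 2 splits in cmt3. Of the genes above, 0 of 19 and 0 of 21 in the next quartile were higher in either mutant, and in the top quartile 0 of 9 and 1 of 9 in each. A fold that starts at the dim end is a fold of intensity, which holds background as well as transcript.

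**Figure D4:**
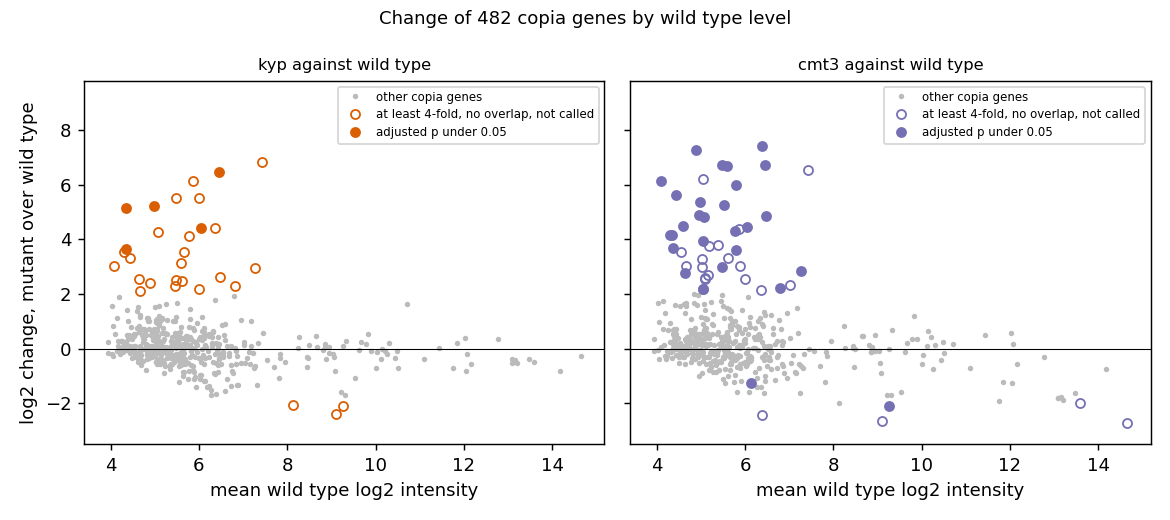
Log2 change over wild type (vertical axis) of 482 copia genes against their mean wild type log2 intensity (horizontal axis), for kyp (left) and cmt3 (right), with symbols as filled for genes that passed limma's test, open for those at least 4-fold changed without overlap, and grey for the rest. High points stop at a wild type mean of 7.42 in both panels, and the brightest genes in cmt3 lie below 0.

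The brightest copia genes in wild type included 5 loci of ONSEN (ATCOPIA78), an element whose repeats carry heat response elements and which is transcribed in heat-stressed plants. Of 8 ONSEN loci listed, 6 were on the array. Leaving out AT1G48710, the other 5 (AT1G11265, AT3G61330, AT5G13205, AT3G59720 and AT3G32415) read 12.68 to 13.24 and 12.43 to 12.96 in kyp, 12.02 to 12.36 and 10.54 to 10.80 in cmt3, and 13.06 to 13.64 and 13.05 to 13.51 in wild type. Both cmt3 arrays were below both kyp and both wild type arrays in each of the 5, and the cmt3 arrays lay apart from each other. Changes ran from -2.001 to -1.764 in cmt3 (limma adjusted p from 0.145 to 0.185) and from -0.54 to -0.38 in kyp (adjusted p from 0.769 to 0.854). Without cmt3 replicate 2 the changes in cmt3 ran from -1.22 to -0.92. The 5 loci gave nearly the same values on each array, and whether their probes tell the copies apart was not tested. The sixth locus, AT1G48710, read 12.59 and 12.13 in kyp, 11.67 and 10.10 in cmt3, and 8.53 and 12.89 in wild type, so its wild type arrays disagreed by 4.36.

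Genes of the heat response were measured beside them. The summed intensity of 8 heat shock genes was 67195 and 51474 in kyp, 25261 and 13061 in cmt3, and 126962 and 110019 in wild type. This order of the sums rests on the brightest genes, and the mean change was lower in cmt3 than in kyp for 6 of the 8, HSP22 and HSP21 being the exceptions. All 8 had a lower mean in each mutant than in wild type, with a median change of -1.52 in kyp and -2.93 in cmt3. Limma called 0 of them, with 5 in kyp and 7 in cmt3 at an unadjusted p under 0.05. Over all gene models 5.11% were lower at that unadjusted p in kyp and 10.1% in cmt3. HSFA2, a heat shock transcription factor, read 14.05 and 13.50 in kyp, 12.55 and 10.51 in cmt3, and 14.98 and 14.76 in wild type (adjusted p = 0.664 in kyp and 0.115 in cmt3). The part of the heat response in the ONSEN levels was not tested, and the slide moves with both.

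**Figure D5:**
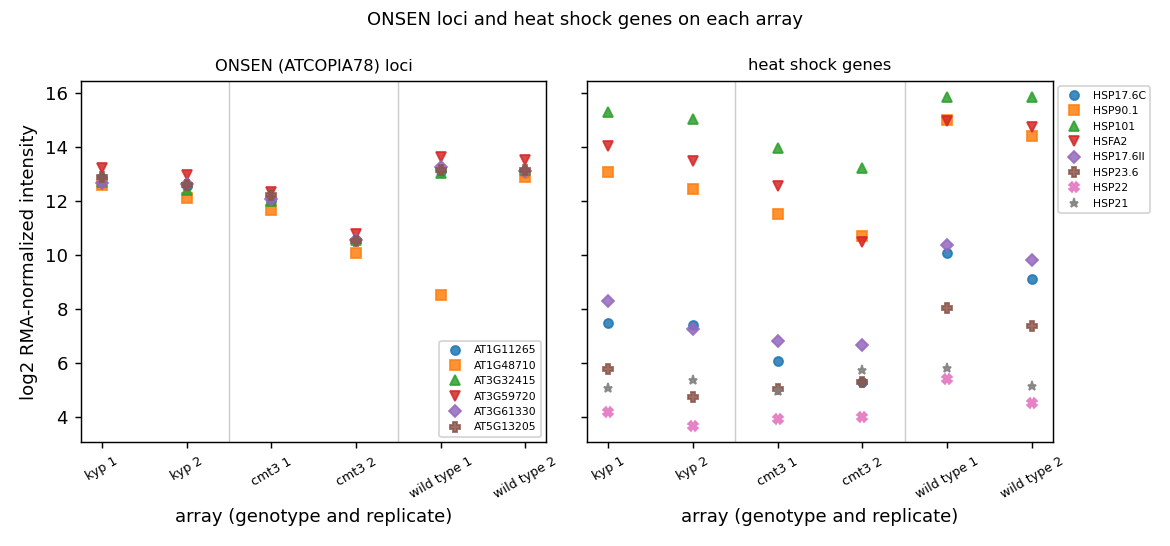
Log2 RMA-normalized intensity (vertical axis) on each array (kyp, cmt3, wild type) for 6 ONSEN loci (left) and 8 heat shock genes (right), 1 symbol per gene. The ONSEN loci are lowest in cmt3 replicate 2, except for AT1G48710, whose lowest value of 8.53 is in wild type replicate 1, and HSFA2, HSP101 and HSP90.1 are also lowest in cmt3 replicate 2.

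The other bright loci behaved unlike each other. AT2G07080, a match of the Endovir1-1 polyprotein, had the highest wild type mean and read 14.19 and 14.59 in kyp, 14.28 and 9.56 in cmt3, and 14.66 and 14.64 in wild type. In cmt3 replicate 1 lay close to wild type and replicate 2 far below it, so the mean change of -2.72 did not pass (limma adjusted p = 0.379). AT4G04410, a match of AtRE2, read 13.37 and 13.34 in kyp, 13.42 and 13.43 in cmt3, and 14.07 and 14.27 in wild type. All 4 mutant arrays lay below wild type, by 0.82 in kyp and 0.75 in cmt3 (adjusted p = 0.182 and 0.085). AT1G10260, a match of the Endovir1-1 polyprotein, read 13.17 and 13.06 in kyp, 12.58 and 11.16 in cmt3, and 13.50 and 13.46 in wild type, an order like that of the ONSEN loci. Over the 28 copia genes in the upper quartiles of the wild type level, 22 had a lower mean in kyp and 19 in cmt3, and the median change was -0.35 in kyp and -0.57 in cmt3. Since the same wild type values set the level and enter the change, part of this lean downward is built in. The 28 include the ONSEN loci, most of which gave nearly the same values, so they are not separate measurements. The share over all gene models of these quartiles is not given here.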

How the data were processed

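RNA of young leaves was measured on 6 one-colour NimbleGen arrays (Cy3). The deposited intensities, on a linear scale, had been normalized with RMA by the authors, per the labels, whose settings are not given here. The files hold no background or detection values, and the intensities ran from 10.6 to 64963, with array medians of 946 to 997. The log2 of the intensities entered a single linear model over 6 arrays and 30361 gene models (limma 3.58.1, R 4.3.3; default empirical Bayes moderation, no block). It left 3 residual degrees of freedom. The procedure was tested on simulated data with independent noise and no slide effect, so that test says nothing on the slide. Called means an adjusted p under 0.05 (Benjamini-Hochberg, all gene models, no filter). Locus, length, best match and position came from descriptions marked Release 6, and all 482 loci matched RefSeq locus tags. Named genes were all called members, the 8 with the highest wild type mean, and listed ONSEN loci. The 6 uncalled members with the largest change without overlap in each mutant were named too. Neither of the 2 listed EVADE loci was on the array. Members and lists were chosen with earlier results of these data known. The number of arrays limits the precision, and no sequence or probe table was used here.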

Additional observations from a re-analysis of the deposited data

How the results depend on the processing

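Of the 5 copia genes called in kyp, 0 were called with the slide block, with the replicate block, in a fit of the kyp and wild type arrays only, or without any 1 array (0 to 0); 13 copia genes were called with a variance that follows intensity, 12 without the lowest 25% of models and 14 at an adjusted p under 0.10. The 28 called in cmt3 became 0 with the slide block, 6 with the replicate block, 5 from the cmt3 and wild type arrays only, 54 with the variance that follows intensity, 51 at 0.10, and 2 (without cmt3 replicate 2) to 15 (without wild type replicate 2). The block, 2-genotype and leave-one-out fits have fewer residual degrees of freedom. The called genes kept their sign in each fit that held them, which the 2-genotype and leave-one-out fits could not have changed. Quantile normalization kept all 5 and all 28 calls. Kyp against cmt3 gave 4 with the variance that follows intensity. At 2-fold 56 copia genes were higher in kyp and 84 in cmt3, and at 8-fold 17 in kyp. The median change in kyp (0.033) was -0.014 with the slide block, 0.082 without the lowest 25%, and -0.014 to 0.085 without 1 array. In cmt3 (0.088) it was 0.133, 0.289, and 0.068 to 0.134. Pericentromeric calls in cmt3 (0) were 5 with bins at 33% and 1 with 0.5 Mb bins. Within 3 Mb of the centre, a bound set after the data were seen, they were 14 in cmt3 and 2 in kyp. Calls in the lowest wild type quartile (4 in kyp, 22 in cmt3) were fewer when 1 wild type array gave the level and the other the change. That change rests on 1 wild type array, and leaving out 1 wild type array by itself lowered the calls. The fall can therefore not be tied to the level. Leaving out 1 array turned the direction of uncalled changes: in kyp AT1G30340 (-1.473 to 0.347), AT1G48710 (-0.527 to 3.833), AT2G03100 (-0.175 to 1.23) and AT4G09595 (-0.477 to 0.508), and in cmt3 AT1G48710 (-2.003 to 2.358) and AT1G70010 (-1.483 to 0.502). The cause of these shifts was not tested. Replicate numbers did not pair the arrays (correlations of deviations -0.12, 0 and -0.04), so the replicate block says nothing on effect size. Signal over background is unknown, which limits what folds of dim genes mean.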
